A study of Arabidopsis thaliana with 32 samples.

Results

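The *SAUR19* subfamily of *Arabidopsis thaliana* was examined in monosome and polysome RNA of seedlings with altered mitochondrial calcium uniporters or with a blocked respiratory chain. The subfamily holds 6 genes, *SAUR19* (AT5G18010), *SAUR20* (AT5G18020), *SAUR21* (AT5G18030), *SAUR22* (AT5G18050), *SAUR23* (AT5G18060) and *SAUR24* (AT5G18080), of 28394 genes listed in the series. They were taken by their gene identifiers, and all 6 were present in each of the 6 tables and passed the filter on low values in every comparison. The family was selected on the fall of *SAUR20* in monosome RNA of *2OX* seedlings, so values of that contrast are given as a description, without a test.

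*SAUR* genes (*Small Auxin Up RNA*) encode short proteins, and many of their transcripts are made within minutes of an auxin pulse and decay quickly. Proteins of the *SAUR19* subfamily bind and inhibit PP2C.D phosphatases, which otherwise remove an activating phosphate from the plasma membrane proton pumps of the AHA family. The pumps then acidify the cell wall, expansins loosen it and the cell elongates, a sequence known as acid growth. In seedlings these genes are known for elongation of hypocotyls and petioles, and auxin, brassinosteroid and PIF transcription factors are among their regulators.

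Whole seedlings of the Col-0 background were used at an age of 10 d. *2OX* was a single line that overexpressed *MCU2*, a mitochondrial calcium uniporter, fused to YFP under the constitutive 35S promoter. The sextuple mutant combined lesions in *MCU1* to *MCU6* and was a knockdown with residual transcripts. Both were compared with untreated wild type (WT) grown on the same kind of agar plates. Separate WT seedlings were moved to liquid medium, where the methods add a night of shaking in darkness that the labels do not mention, and received 50 µM antimycin A (AA), an inhibitor of respiratory complex III, or the solvent DMSO. The labels give 5 h for this treatment, while the methods give 4 h. Polysomes, mRNAs that carry many ribosomes, were parted from monosomes on sucrose gradients, and polyadenylated RNA of each fraction was sequenced from 3 replicates of *2OX*, the sextuple mutant, AA and DMSO and from 4 of WT, 32 libraries in all. WT replicates 2, 3 and 4 were set against *2OX*, and WT replicates 1, 2 and 4 against the sextuple mutant, so both comparisons share WT replicates 2 and 4. The values are a signal per gene, normalized by the authors within each table, so each table has its own scale. The labels do not say whether replicates were separate cultures, and the methods call replicates biological only for total RNA, which is not among these libraries, so p-values measure the spread between these samples, which may be technical.

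The depth in reads is unknown, and the normalized values of a library summed to 21434500 to 45133100. Ribosomal RNA genes together with AT3G06365, an uncharacterized RNA, took 15.6% to 63.4% of that sum. *MCU2* lay at 763 to 999 in *2OX* polysome RNA and at 196 to 227 in WT. *MCU3* lay at 337 to 404 in sextuple polysome RNA and at 545 to 673 in WT, while the *MCU2* ranges of these groups overlapped (209 to 247 and 233 to 310.1). *AOX1A*, the alternative oxidase gene induced by AA, lay at 41338 to 49386 after AA and at 22477 to 27113 after DMSO in polysome RNA. In monosome RNA its ranges overlapped (21789 to 26936 after AA and 15720 to 22654 after DMSO). On plates *AOX1A* lay at 1862 to 2539 in *2OX* polysome RNA and at 969 to 1238 in WT, without overlap, while sextuple and WT ranges overlapped (1099 to 1455 and 1150 to 1338). The DMSO controls were thus far above plate WT, though on a separate scale, and this was not tested. Defining floral genes (*AP3*, *PI* and *AG*) summed to 52.3 or less in each library, against at least 103963 for shoot markers (*RBCS1A*, *RBCS3B* and *LHCB2.1*).

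The 6 genes lie within 21.5 kb of chromosome 5 (chr5:5962773-5984308, RefSeq TAIR10.1), with 8 other annotated genes between them, none of which overlaps a member. *SAUR19* (chr5:5962773-5963405), *SAUR20* (chr5:5966183-5966785) and *SAUR22* (chr5:5974341-5975087) are on the minus strand, and *SAUR21* (chr5:5968352-5969190), *SAUR23* (chr5:5975780-5976589) and *SAUR24* (chr5:5983683-5984308) on the plus strand. Each has 1 annotated transcript with 1 exon, of 495 bases in *SAUR20* to 839 bases in *SAUR21*. The coding part is 267 bases in *SAUR21*, 276 bases in *SAUR20* and 273 bases in the other four.

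**Figure D1:**
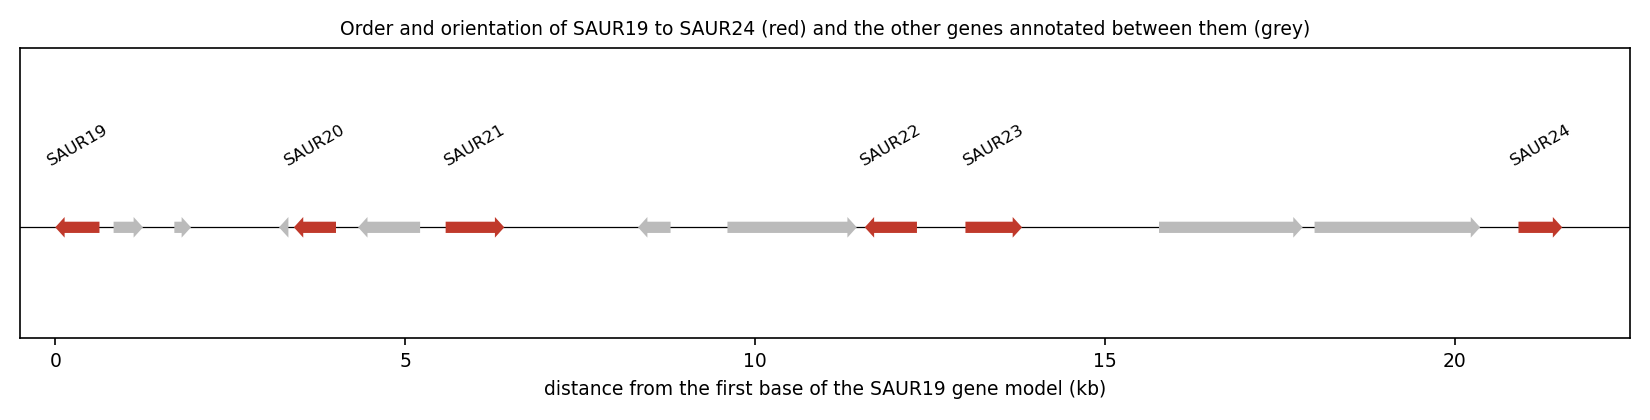
Gene models of the *SAUR19* subfamily on chromosome 5, drawn to scale. The horizontal axis gives the distance in kb from the first base of *SAUR19*, arrows point in the direction of transcription, red arrows are the 6 members and grey arrows the 8 other annotated genes. *SAUR22* and *SAUR23* are divergent neighbours, and *SAUR24* stands apart at the right end.

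Coding sequences of the members were 87.7% (*SAUR20* and *SAUR22*) to 95.2% (*SAUR19* and *SAUR24*) identical in global alignments, with a median of 91.2% over 15 pairs. The first 60 coding bases are printed to show how alike the genes are where reads have to be told apart. Capitals mark bases that fewer of the 6 genes share than the most common base at that position.
SAUR19: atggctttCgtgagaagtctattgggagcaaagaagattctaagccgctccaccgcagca
SAUR20: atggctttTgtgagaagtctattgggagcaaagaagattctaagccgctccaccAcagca
SAUR21: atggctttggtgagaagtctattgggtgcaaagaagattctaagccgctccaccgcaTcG
SAUR22: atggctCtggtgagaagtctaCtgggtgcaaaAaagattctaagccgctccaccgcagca
SAUR23: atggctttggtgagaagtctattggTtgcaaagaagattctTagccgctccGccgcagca
SAUR24: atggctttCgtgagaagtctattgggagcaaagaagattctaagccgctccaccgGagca
Between 1 and 3 of the 60 bases per gene were of this kind. Over the whole transcript, 81.5% of the 50-base windows of *SAUR19* were unique to it among annotated transcripts, and 18.5% occurred in another member. The unique share was 94.2% in *SAUR20*, 94.8% in *SAUR21*, 99.4% in *SAUR22*, 97.4% in *SAUR23* and 92.9% in *SAUR24*. No window was shared with a gene outside the subfamily. Read length and the handling of reads that match several genes are not given in the sources used here, so values of single members, and of *SAUR19* in particular, are uncertain to the extent that reads were split between copies.

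The 250 bases before each annotated transcript start were read because the members varied together. For *SAUR20* this window begins inside its own gene model, which runs past the transcript start (5966677) to 5966785. Searched on both strands were the auxin response element core TGTCTC and its variant TGTCGG, to which auxin response factors bind, and the G-box CACGTG and the related CATGTG, to which PIF factors bind. Printed are *SAUR19* and *SAUR20*, the members called lower after AA in polysome RNA, and *SAUR24*, the member whose change there was nearest 0, with matches in capitals (chr5:5963406-5963655, minus strand, chr5:5966678-5966927, minus strand, and chr5:5983433-5983682, plus strand).
SAUR19: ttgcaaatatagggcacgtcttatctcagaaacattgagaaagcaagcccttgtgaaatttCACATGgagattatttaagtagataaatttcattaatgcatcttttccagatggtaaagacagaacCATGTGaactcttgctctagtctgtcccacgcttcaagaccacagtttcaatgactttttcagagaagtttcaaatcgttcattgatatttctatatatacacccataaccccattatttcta
SAUR20: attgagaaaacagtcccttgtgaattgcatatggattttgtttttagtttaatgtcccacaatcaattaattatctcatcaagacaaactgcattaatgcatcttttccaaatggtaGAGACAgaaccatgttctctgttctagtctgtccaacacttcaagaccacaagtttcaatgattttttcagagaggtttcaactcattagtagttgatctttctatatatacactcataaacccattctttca
SAUR24: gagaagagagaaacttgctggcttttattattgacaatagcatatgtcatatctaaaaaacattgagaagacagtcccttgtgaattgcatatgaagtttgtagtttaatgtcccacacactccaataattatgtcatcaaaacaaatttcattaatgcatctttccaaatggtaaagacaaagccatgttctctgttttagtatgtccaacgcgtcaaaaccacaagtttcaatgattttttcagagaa
CATGTG was present in *SAUR19* (from -123 relative to the transcript start and, on the opposite strand, from -189), *SAUR21* (from -42) and *SAUR22* (from -105), and TGTCTC on the opposite strand in *SAUR20* (from -133) and *SAUR22* (from -115). No match overlapped another. *SAUR23* and *SAUR24* held none of the 4 motifs. Of the windows of all 31345 genes, 10.7% held CATGTG, 10.9% TGTCTC, 4.15% TGTCGG and 5.93% CACGTG. Among 74 other *SAUR* genes 29 held CATGTG (39.2%) and 5 held TGTCTC (6.76%). A match is a description of the letters and not a binding site.

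The windows shared a block of 33 bases, chosen after the sequences were seen, that contains these matches in *SAUR20*, *SAUR21* and *SAUR22* and the one from -123 in *SAUR19*. Capitals mark bases that fewer members share than the most common base at that position.
SAUR19: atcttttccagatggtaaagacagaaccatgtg
SAUR20: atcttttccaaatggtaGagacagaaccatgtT
SAUR21: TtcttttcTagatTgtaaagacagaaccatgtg
SAUR22: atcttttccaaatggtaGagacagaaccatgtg
SAUR23: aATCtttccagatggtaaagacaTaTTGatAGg
SAUR24: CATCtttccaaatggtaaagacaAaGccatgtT
The block lay 150 bases before the transcript start in *SAUR19* (chr5:5963523-5963555) and *SAUR20* (chr5:5966795-5966827), 132 bases before it in *SAUR22* (chr5:5975187-5975219), 195 in *SAUR23* (chr5:5975585-5975617), 92 in *SAUR24* (chr5:5983591-5983623) and 69 in *SAUR21* (chr5:5968283-5968315). Compared position by position without gaps, *SAUR23* had 9 less common bases, *SAUR24* had 7 and *SAUR19* had 0. A shorter run of t in *SAUR23* and *SAUR24* shifts the letters before it, so their counts overstate the bases that differ.

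Levels per kb of transcript were compared within each table, with the spread over 3 replicates. The gene model of *SAUR20* (to 5966785) runs past its annotated transcript (to 5966677), whose 495 bases were used here. A longer length would lower its level per kb, so its place beside *SAUR21* depends on that choice. In monosome RNA *2OX* had *SAUR21* first, at 501 ± 51.2 per kb, and *SAUR20* next, at 419 ± 19.3 per kb (SD, n = 3), with ranges apart. WT had *SAUR20* first, at 1053 ± 135 per kb and above 92.3% of genes, then *SAUR21* at 841 ± 93.0 and *SAUR24* at 619.8 ± 98.5 per kb, with ranges apart, and then *SAUR23*, *SAUR19* and *SAUR22*, which was last at 351 ± 91.6 per kb and overlapped its neighbour. In polysome RNA *SAUR20* was first in both groups, at 858 ± 87.1 per kb in *2OX* and 1657 ± 627 per kb in WT, and *SAUR22* last, at 348 ± 109.7 and 657 ± 258 per kb, and all neighbours in the order overlapped. The sextuple mutant and its WT had the order *SAUR20*, *SAUR21*, *SAUR24*, *SAUR23*, *SAUR19* and *SAUR22* in both fractions, with overlap between all neighbours.

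The seedlings in liquid medium had another order. *SAUR23* was first after AA and after DMSO in both fractions, at 618 ± 59.6 and 798 ± 50.5 per kb in monosome RNA and at 749 ± 92.1 and 891 ± 56.5 per kb in polysome RNA. *SAUR20* was last after AA in monosome RNA, at 337 ± 194 per kb, and second after DMSO, at 781 ± 34.2 per kb. In polysome RNA *SAUR20* and *SAUR19* ended the order after AA at 392.5 ± 107 and 392.2 ± 90.2 per kb, and *SAUR24* ended it after DMSO at 590.4 ± 82.8 per kb. Most neighbours overlapped. The orders of plate and liquid seedlings were read from separately scaled tables and were not tested against each other.

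**Figure D2:**
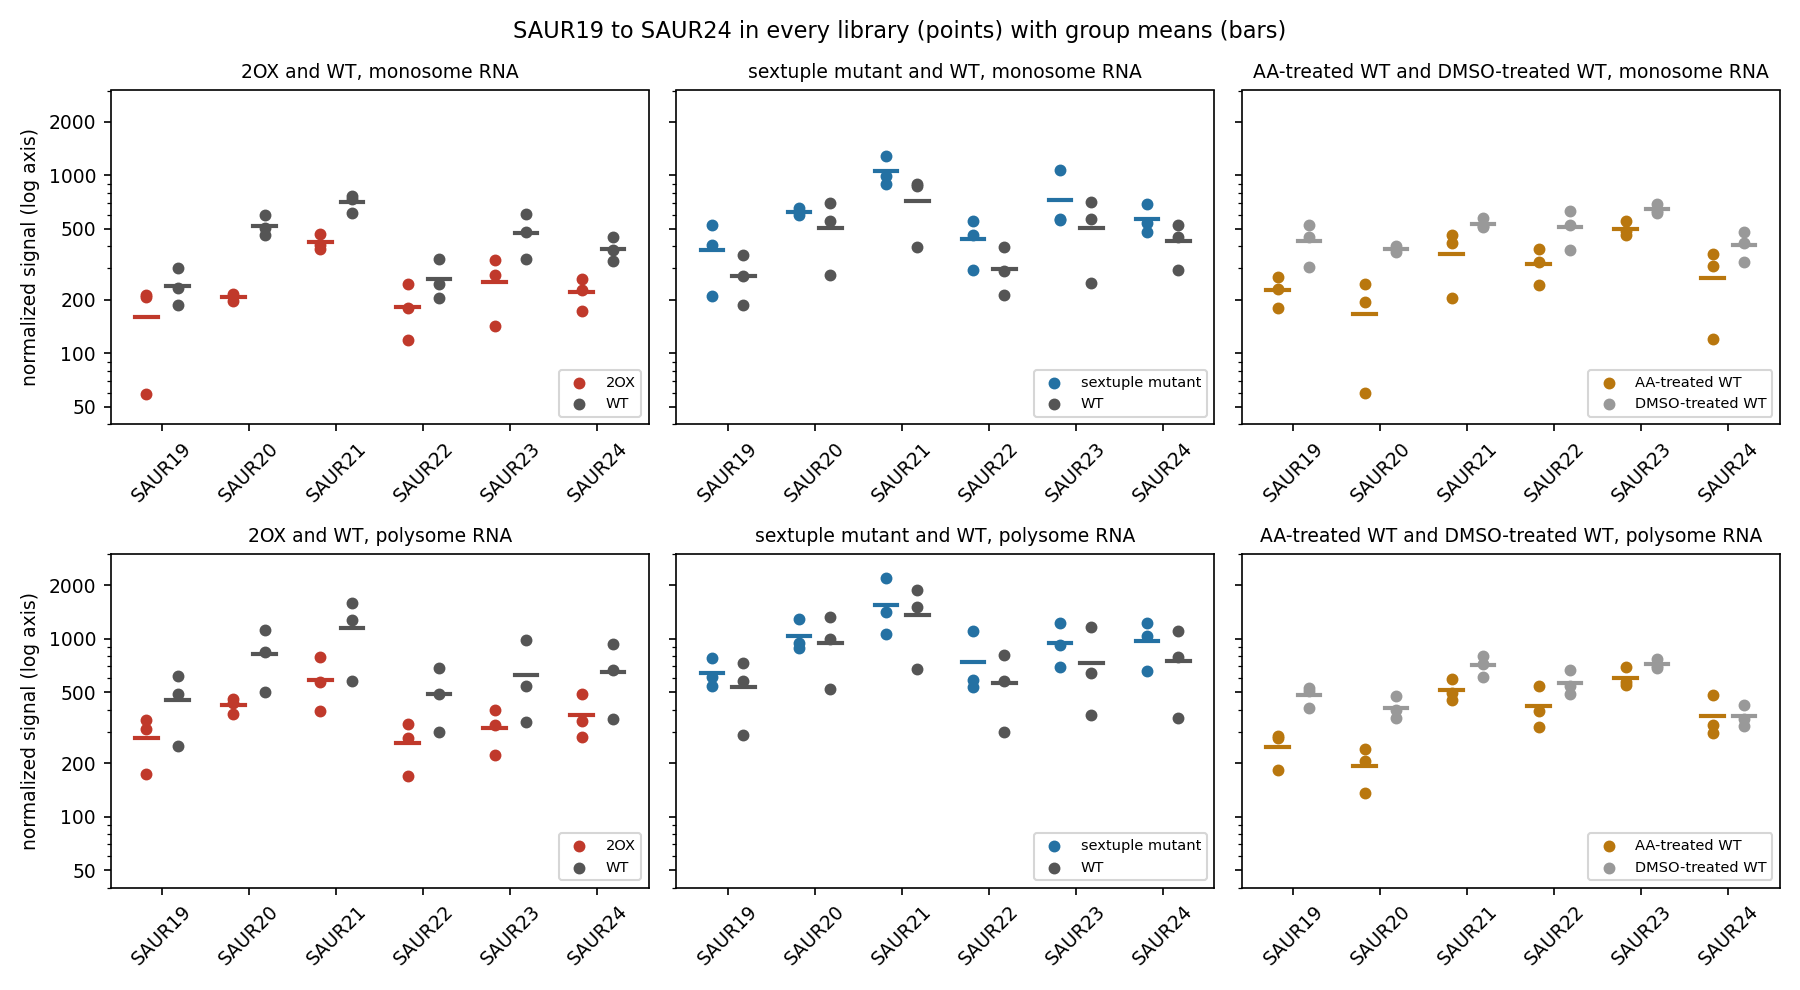
Value of each member in every library, as normalized signal on a log axis, for monosome RNA (upper panels) and polysome RNA (lower panels). Points are libraries and bars group means of 3 replicates, with *2OX*, the sextuple mutant or AA left of WT or DMSO. *SAUR20* of *2OX* monosome RNA sits between 197 and 216, below all 3 WT libraries, and sextuple values overlap WT except for *SAUR21* in monosome RNA.

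In monosome RNA all 6 members had lower group means in *2OX* than in WT. *SAUR20*, the gene that led to the choice of the family, had 209.7, 197 and 216 in *2OX* replicates 1, 2 and 3, against 465, 503 and 595 in WT replicates 2, 3 and 4. The *2OX* libraries lay close together and far under WT, and the fitted log2 change, on the scale of log2(value + 1), was -1.32 (SE 0.20). *SAUR21* had 405, 387 and 469 in *2OX* and 732, 618 and 766 in WT, a change of -0.74. Values of *SAUR23* were 337, 142 and 275 in *2OX* and 481, 339 and 604 in WT (-0.97). The *SAUR23* groups barely parted, and those of *SAUR20* and *SAUR21* stood well apart. *SAUR24* had 174, 227 and 262 in *2OX* and 382, 329 and 452 in WT (-0.82).

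*SAUR19* and *SAUR22*, the least abundant members, overlapped between the groups. *SAUR19* had 214, 59.1 and 207 in *2OX* and 302, 187 and 232 in WT, where *2OX* replicate 2 was far below the others (-0.77, and -0.16 without that library). For *SAUR22* the values were 179.6, 119 and 246 in *2OX* and 246, 204 and 338 in WT (-0.56). Thus 4 of 6 members were lower in every *2OX* replicate than in every WT replicate, where 5.09% of the 19637 genes of the fit were; since this contrast chose the members, the count is not evidence about them. In whole seedlings, fewer cells that express a gene and less RNA per cell cannot be told apart.

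Polysome RNA, the other fraction of these gradients, was not used in the choice. The 6 genes again had lower means in *2OX*, and none passed the test. *SAUR20* had 460.0, 437 and 377 in *2OX* and 1120.3, 500.3 and 839 in WT, so all 3 *2OX* libraries were under the lowest WT library. Its log2 change was -0.88 (SE 0.24), with a limma adjusted p of 0.381. *SAUR21* had 789, 394 and 569.9 in *2OX* and 1588, 579 and 1274 in WT, with a change of -0.91 (SE 0.32) and a limma adjusted p of 0.664. WT replicate 3 lay inside the *2OX* range there, as it did for each member but *SAUR20*. The other four genes had changes of -0.89 (*SAUR22*), -0.88 (*SAUR23*), -0.74 (*SAUR24*) and -0.67 (*SAUR19*), with limma adjusted p-values of 0.609 to 0.870. *SAUR19* lay at 173 to 348 in *2OX* and 249 to 621 in WT. *SAUR22* lay at 170.4 to 331 in *2OX* and 299 to 684 in WT. *SAUR23* lay at 223 to 398 in *2OX* and 342 to 984 in WT, and *SAUR24* lay at 281 to 489 in *2OX* and 354 to 938 in WT. In each of these the highest *2OX* library exceeded the lowest WT library.

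By limma 0 of 6 members were called lower at an adjusted p under 0.05, where 0.0252% of 19873 genes were. At an unadjusted p under 0.05, 5 of 6 were lower, all but *SAUR19*, where 2.81% of genes were. Only *SAUR20* was without overlap, where 5.09% of genes were. The members share these libraries and varied together (Pearson's r of 0.70 to 0.91 between pairs over all tables), so counts of members here and below do not rest on 6 separate observations. The median change of the members was -0.88 and that of all genes -0.01, and between 1.39% and 2.98% of genes had a lower value than each member. Without WT replicate 3, *SAUR20* alone was called, with a change of -1.20 and a limma adjusted p of 0.0320. Without WT replicate 2 the change was -0.40 for *SAUR19*, -0.42 for *SAUR24* and -0.49 for *SAUR23*, and 0 members were called, with a limma adjusted p of 1.00 for each. Monosome and polysome libraries came from the same gradients, so the fractions are not independent samples of seedlings. Root markers summed to 5788 to 7961 in *2OX* and 7093 to 8407 in WT polysome RNA and shoot markers to 1254000 to 1762510 and 1505940 to 1793410, with overlap in each, and their part in these values was not tested.

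The sextuple mutant, in which uniporters are reduced, had higher group means than WT for the 6 members, and the size of the difference depended on 1 WT library. In monosome RNA *SAUR21* had 997, 899 and 1284 in mutant replicates 1, 2 and 3 and 397, 868 and 896 in WT replicates 1, 2 and 4. Each mutant library was above each WT library, by little in replicate 2, and the fitted log2 change was 0.63 (SE 0.24). *SAUR20* had 624, 599 and 656 in the mutant and 277, 551 and 696 in WT (0.40). The mutant libraries of *SAUR20* lay within the range of WT. Changes of the other four were 0.44 (*SAUR19*), 0.54 (*SAUR22*), 0.59 (*SAUR23*) and 0.45 (*SAUR24*), all with overlap. WT replicate 1 was the lowest WT library of each member. Without it the change was 0.01 for *SAUR20*, 0.25 for *SAUR21*, 0.19 for *SAUR19*, 0.31 for *SAUR22*, 0.14 for *SAUR23* and 0.20 for *SAUR24*, and *SAUR21* was again the member without overlap. Only 1 of 6 members was higher without overlap, where 5.06% of genes were. These WT libraries are in part those of the contrast that chose the family, so no test was made.

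In polysome RNA the same direction was seen, and no member was called. *SAUR20* had 883, 947 and 1295 in the mutant and 522, 1329 and 996 in WT. *SAUR23* had 699, 927 and 1226 in the mutant and 373, 1166 and 645 in WT. *SAUR21* lay at 1066 to 2194 in the mutant and 674 to 1884 in WT. WT replicate 1 was the lowest library of all 6 genes, and 0 of 6 members were higher without overlap, where 7.27% of genes were. Log2 changes were 0.35, 0.22, 0.26, 0.43, 0.50 and 0.47 for *SAUR19* to *SAUR24*, with SEs of 0.25 to 0.31 and limma adjusted p-values of 0.607 to 0.795. By limma 0 of 6 members were called higher, where 0.0547% of 20110 genes were, and 0 of 6 had an unadjusted p under 0.05, where 4.19% of genes were higher at that level. Without WT replicate 1 the change was -0.04 for *SAUR19*, -0.16 for *SAUR20* and -0.18 for *SAUR21*, and without sextuple replicate 3 it was -0.02 for *SAUR21*. Shoot markers summed to 1228990 to 1778850 in the mutant and 1804420 to 2128650 in WT polysome RNA, without overlap. Most of that shoot sum was *RBCS1A* (724960 to 1241630 and 1250590 to 1597630). *RBCS3B* overlapped, as did *LHCB2.1*, which reached higher in the mutant (104520 to 114552 and 80970 to 105781). Shoot sums overlapped in monosome RNA (788838 to 1053670 and 697662 to 828290), and root sums in polysome RNA (8609 to 10131 and 9385 to 9978). Root markers summed to 12933 to 13225 and 14887 to 16317 in monosome RNA, without overlap. Most of that root sum was *PYK10* (12366 to 12785 and 14507 to 15707), while *EXPA7* was higher in the mutant (150.1 to 169.8 and 74.3 to 125), and the median change of the 4 root markers was 0.03. Their part in the *SAUR* values was not tested.

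Added up over the 6 genes, monosome RNA held 1441 ± 280.2 in *2OX* and 2592 ± 404 in WT, and 3808 ± 853 in the sextuple mutant and 2733 ± 987 in WT (SD, n = 3 each). Polysome RNA held 2815, 1679 and 2207 in *2OX* and 5936, 2324 and 4303 in WT replicates 2, 3 and 4. The spread among WT libraries was wider than that among *2OX* libraries. In the sextuple comparison the polysome sums were 4387, 5534 and 7828 in the mutant and 2518, 7038 and 5108 in WT replicates 1, 2 and 4.

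**Figure D3:**
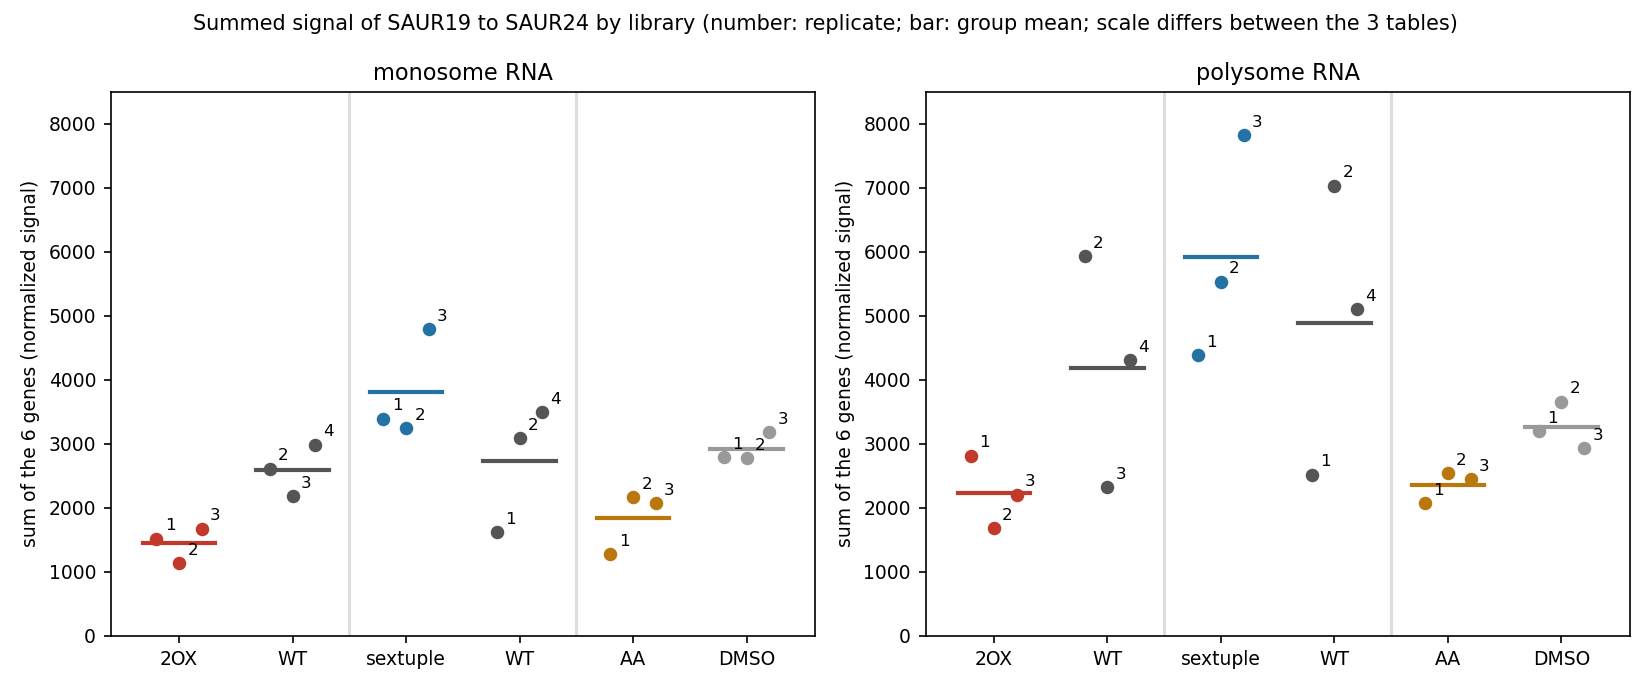
Sum of the 6 members in every library, as normalized signal on a linear axis, for monosome RNA (left) and polysome RNA (right). Points carry the replicate number, bars are group means, and grey lines part the 3 comparisons, which have different scales. In monosome RNA the sums of *2OX* lie below WT replicates 2, 3 and 4 and those of AA below all DMSO libraries, while WT replicate 3 reaches down to the *2OX* sums in polysome RNA and WT replicate 1 is the lowest library of the sextuple comparison.

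WT replicates 2 and 4 occur in both comparisons, with values 1.17 to 1.19 times as high beside the sextuple mutant, and this factor was used to set all 4 WT replicates side by side on the *2OX* scale, as a description. WT replicate 1 was then the lowest of the 4 for each member in both fractions. *SAUR20* lay at 197 to 216 in *2OX* monosome RNA, against 235, 465, 503 and 595 in WT replicates 1, 2, 3 and 4, and at 377 to 460.0 in *2OX* polysome RNA, against 439.6, 1120.3, 500.3 and 839. *SAUR21* lay at 387 to 469 in *2OX* monosome RNA, against 337, 732, 618 and 766. WT replicate 1, which the *2OX* comparison did not use, was thus just above the *2OX* range of *SAUR20* and below that of *SAUR21* in monosome RNA, and inside the *2OX* range of *SAUR20* in polysome RNA.

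After antimycin A part of the subfamily was lower, in libraries that share nothing with the contrast that chose it. In monosome RNA *SAUR20* had 59.5, 246 and 195 in AA replicates 1, 2 and 3, against 403, 369 and 387 in the DMSO replicates. All AA libraries were lower, AA replicate 1 most. The log2 change was -1.44 (SE 0.38), with a limma adjusted p of 0.0114. *SAUR19* had 180.0, 229.5 and 269 after AA and 449, 307 and 527 after DMSO, also without overlap, a change of -0.90 (SE 0.24) with a limma adjusted p of 0.0126. *SAUR22* had 241, 388 and 325 after AA and 380.2, 635 and 527 after DMSO, which overlap, a change of -0.69 (SE 0.23) with a limma adjusted p of 0.0398. For *SAUR21* (-0.65), *SAUR23* (-0.37) and *SAUR24* (-0.75) limma gave adjusted p-values of 0.0750, 0.116 and 0.106. *SAUR21* had 206, 459.7 and 418 after AA and 510.4, 519 and 573 after DMSO. *SAUR23* had 463, 485 and 555 after AA and 629.9, 616 and 693 after DMSO. Both were lower in every AA library than in every DMSO library. *SAUR24* overlapped, with 121, 362 and 311 after AA and 418, 327 and 480.3 after DMSO.

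In all, 3 of 6 members were called lower in monosome RNA, where 10.4% of 21095 genes were, and 4 of 6 did not overlap, where 19% of genes were lower without overlap. The count depended on single libraries. It was 5 without AA replicate 2 (*SAUR21* and *SAUR24* added), 1 without DMSO replicate 3 (*SAUR20*), and 0 when limma was run without a variance trend, where *SAUR20* had an adjusted p of 0.133. *SAUR20* was called whichever replicate was left out, with a highest limma adjusted p of 0.0429. Without DMSO replicate 1 *SAUR19* had a limma adjusted p of 0.0516, and *SAUR22* was not called without AA replicate 1 (0.155), AA replicate 3 (0.0577), DMSO replicate 2 (0.173) or DMSO replicate 3 (0.0821), nor after quantile normalization (0.0575).

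In polysome RNA *SAUR20* had 205, 241 and 137 after AA and 397, 475 and 358 after DMSO. All AA libraries were again lower, and the change was -1.10 (SE 0.24) with a limma adjusted p of 0.00712. *SAUR19* had 182, 285 and 278 after AA and 529.6, 508 and 408 after DMSO, a change of -0.97 (SE 0.22) with a limma adjusted p of 0.00924. *SAUR21* had 497, 595 and 455 after AA and 721, 806 and 609 after DMSO, lower in every AA library, with a change of -0.46 (SE 0.18) and a limma adjusted p of 0.0996. These 3 members had no overlap between AA and DMSO. At the other end *SAUR24* had 296, 329 and 485 after AA and 356, 427 and 326 after DMSO, with AA replicate 3 the highest of the 6 libraries and a change of -0.02 (SE 0.22) (limma adjusted p = 0.956). *SAUR22* (-0.47) and *SAUR23* (-0.25) lay between, with limma adjusted p-values of 0.166 and 0.319.

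In all, 2 of 6 members were called lower in polysome RNA, where 10.4% of 20614 genes were, and 3 of 6 did not overlap, where 19.7% of genes were lower without overlap. *SAUR20* was called in each of the 13 alternative fits. *SAUR19* had a limma adjusted p of 0.0547 without DMSO replicate 1, which left 1 member called, and *SAUR22* was called in addition without AA replicate 3 (-0.67, limma adjusted p = 0.0142).

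Root and shoot markers moved with AA in monosome RNA. The 4 root markers summed to 16170 to 19163 after AA and 9112 to 11038 after DMSO, without overlap. Most of that sum was *PYK10* (15773 to 18611 and 8334 to 10246), which was higher (0.92, limma adjusted p = 1.1e-04). The root hair genes *EXPA7* (-2.25, limma adjusted p = 4.5e-05) and *COBL9* (-2.77, limma adjusted p = 0.0328) were lower, and *RCI3* overlapped (324 to 504 and 415 to 487). The median change of the 4 root markers was -1.21. The 3 shoot markers summed to 113577 to 163180 after AA and 103963 to 138492 after DMSO, with 2 called higher. In polysome RNA the root sums were 4990.2 to 7586 and 4602 to 5441 and the shoot sums 180888 to 253779 and 184060 to 215901, with overlap of both sums. Of the 3 root markers tested there *EXPA7*, itself an expansin, was called lower (17.6 to 35.9 after AA and 67.7 to 106 after DMSO, -1.84, limma adjusted p = 0.00474), and of the 3 shoot markers *LHCB2.1* was called higher (1.08, limma adjusted p = 0.0320). The part of these markers in the *SAUR* changes was not tested.

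**Figure D4:**
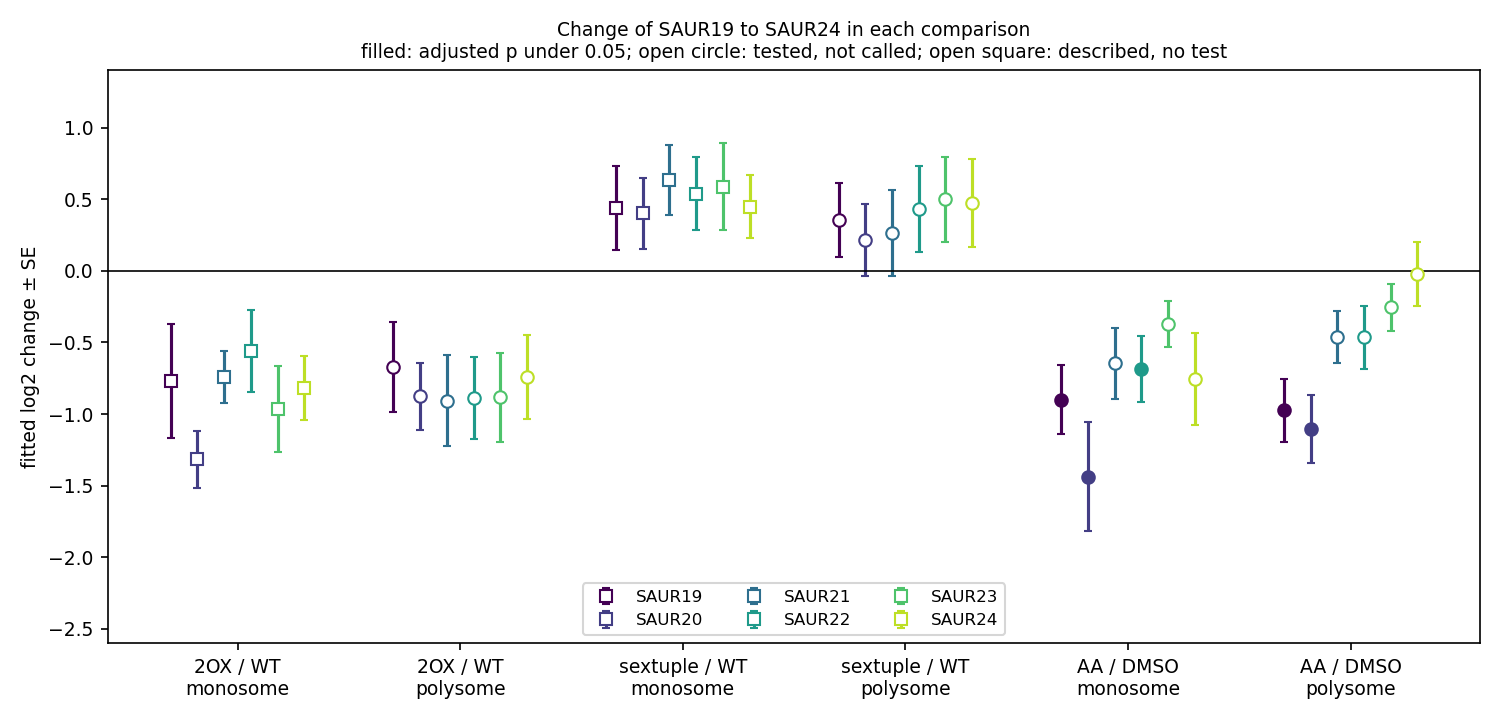
Fitted log2 change with SE of each member in the 6 comparisons, with *2OX*, the sextuple mutant or AA over WT or DMSO. Filled points passed an adjusted p of 0.05 by limma, open circles were tested and not called, and squares are descriptions without a test. After AA the change runs from -1.10 for *SAUR20* to -0.02 for *SAUR24* in polysome RNA, while in *2OX* polysome RNA all 6 lie between -0.91 and -0.67.

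Translational efficiency (TE) is the ratio of polysome to monosome signal, and its change is the change in polysome RNA minus that in monosome RNA. After AA it was 0.73 (SE 0.45) for *SAUR24*, 0.33 (SE 0.52) for *SAUR20*, 0.22 (SE 0.34) for *SAUR22*, 0.18 (SE 0.34) for *SAUR21*, 0.11 (SE 0.22) for *SAUR23* and -0.07 (SE 0.34) for *SAUR19*. By limma 0 of 6 members were called higher, where 0.101% of 21769 genes were, or lower, where 0.786% were, with adjusted p-values of 0.562 to 0.955. At an unadjusted p under 0.05 the members held 0 higher, where 5.19% of genes were, and 0 lower, where 6.67% were. The median of the 6 was 0.20 and that of all genes 0.04. In *2OX* the TE change, given without a test, was 0.44 for *SAUR20* and -0.33 to 0.10 for the others, and in the sextuple mutant it ran from -0.37 (*SAUR21*) to 0.03 (*SAUR24*).

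Relative to the median gene of the same replicate, log2 of polysome over monosome signal averaged above 0 for the members in all groups except *SAUR23* in *2OX* (-0.02 ± 0.22) and in its WT (-0.08 ± 0.66). *SAUR20* averaged 0.62 ± 0.19 in *2OX* and 0.20 ± 0.66 in WT (SD, n = 3), and the *2OX* range lay within that of WT. *SAUR24* averaged 0.75 ± 0.70 after AA and 0.03 ± 0.47 after DMSO, with overlap.

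The AA change was set against the *2OX* change in polysome RNA in 1 fit, since these libraries are not shared. The difference, AA minus *2OX*, was -0.30 (SE 0.43) for *SAUR19*, -0.23 (SE 0.36) for *SAUR20*, 0.44 (SE 0.41) for *SAUR21*, 0.42 (SE 0.40) for *SAUR22*, 0.63 (SE 0.40) for *SAUR23* and 0.72 (SE 0.41) for *SAUR24*. By limma 0 of 6 were called lower, where 4.91% of 21193 genes were, and 0 higher, where 3.65% were, with adjusted p-values of 0.329 to 0.773. At an unadjusted p under 0.05 the members again held 0 lower, where 12.1% of genes were, and 0 higher, where 9.93% were. A p above the threshold does not show that both changes were alike, and the SEs of 0.36 to 0.43 leave room for differences of either sign.

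Against the sextuple mutant the difference, AA minus sextuple, was -1.33 (SE 0.39) for *SAUR19* (limma adjusted p = 0.0288) and -1.32 (SE 0.39) for *SAUR20* (limma adjusted p = 0.0312). For the other four it was -0.73, -0.90, -0.75 and -0.50 for *SAUR21* to *SAUR24*, with limma adjusted p-values of 0.196 to 0.524. Thus 2 of 6 were called lower, where 7.7% of 21287 genes were. The count was 0 without WT replicate 1, DMSO replicate 1, DMSO replicate 2, sextuple replicate 2 or sextuple replicate 3, 1 without AA replicate 1, 3 without WT replicate 2, and 0 without a variance trend (*SAUR19* limma adjusted p = 0.0954). Among the genes of the lists, the largest called differences were those of *SAUR69*, *YUC1* and *IAA31* for AA minus *2OX* and of *SAUR69*, *IAA33* and *IAA31* for AA minus sextuple. *SAUR69*, *IAA31* and *IAA33* were listed at 0 in all 3 AA libraries, and *YUC1* lay at 0.00699 to 2.08 after AA and 6.08 to 14.2 after DMSO. With values this near 0, the size of these differences depends on the 1 added before the log2.

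The members varied together over the 36 library columns, each gene centred on its mean within a table. Pearson's r between members was 0.70 (*SAUR19* and *SAUR24*) to 0.91 (*SAUR21* and *SAUR24*), with a median of 0.80 over 15 pairs. *SAUR21* followed the mean of the other 5 most closely (r = 0.96) and *SAUR19* least (r = 0.82). The genes share libraries, scale and, in part, sequence, and WT replicates 2 and 4 enter in both comparisons, so these r are descriptions.

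Of 18716 genes that passed the filter in every table, the 5 non-members most like the mean of the 6 were all *SAUR* genes, *SAUR27* (r = 0.90), *SAUR62* (AT1G29430, 0.90), *SAUR26* (0.89), *SAUR65* (AT1G29460, 0.88) and *SAUR29* (0.87). *SAUR27* averaged 204 ± 33.1 in *2OX* and 360.2 ± 102 in WT monosome RNA (SD, n = 3 each). In the sextuple mutant it averaged 504 ± 233 and in WT 424 ± 118. *SAUR62* averaged 441 ± 86.2 after AA and 782 ± 30.4 after DMSO in polysome RNA, with all AA libraries lower.

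Other *SAUR* genes fell after AA as well, where 10.4% of all genes were called lower in each fraction. Of 59 other *SAUR* genes tested in monosome RNA 26 were called lower and 1 higher (11.6% of all genes were called higher), with a median of -0.81, and of 59 in polysome RNA 24 were lower and 3 higher (8.48% of all genes), with a median of -0.80, where the median of all genes was -0.02 and 0.01. The median of the members was -0.72 and -0.46. The largest change was that of *SAUR69*, listed at 0 in all 3 AA libraries of polysome RNA and at or within rounding of 0 in those of monosome RNA, against 16.2 to 52.5 and 49.6 to 54.1 after DMSO (limma adjusted p = 0.00186 and 8.7e-04). It passed the filter on low values through its DMSO libraries alone, and the size of its change depends on the 1 added before the log2. *SAUR76* lay at 92.1 to 206 after AA and 1491 to 1881 after DMSO in polysome RNA, a change of -3.48 with a limma adjusted p of 1.2e-05, and its TE was called lower as well (-1.75, limma adjusted p = 0.0192). *SAUR34* lay at 0.0334 to 2.16 after AA and 29.1 to 50.6 after DMSO in monosome RNA (limma adjusted p = 0.00477), and it too passed the filter there through DMSO libraries alone.

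In *2OX* 0 of 55 other *SAUR* genes were called in polysome RNA by limma, 15 were lower at an unadjusted p under 0.05 (2.81% of all genes) and 11 were lower without overlap (5.09% of all genes), with a median of -0.27, against -0.88 for the members. In the sextuple mutant 0 of 59 were called, 8 were lower at that level (5.83% of all genes) and 0 higher, and the median was -0.04, against 0.39 for the members. These medians describe the lists and were not tested against each other.

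Alpha-expansins, the proteins that loosen the acidified cell wall, are encoded by 25 genes. A link between RNA of these genes and that of the *SAUR* genes was not tested. After AA 12 of 17 tested were called lower and 1 higher in monosome RNA (median -0.62) and 6 of 15 lower in polysome RNA (median -0.77), where 10.4% of all genes were called lower in each fraction and 11.6% and 8.48% higher. *EXPA5* lay at 64.9 to 67.1 after AA and 249.7 to 308 after DMSO in monosome RNA (-2.03, limma adjusted p = 6.8e-05), and its polysome change was -3.37 (limma adjusted p = 0.0160). *EXPA12* lay at 0.210 to 15.1 after AA and 73.6 to 141 after DMSO in monosome RNA (-4.45, limma adjusted p = 0.00102). Of 3 proton pump genes 1 was called higher in each fraction, and of 9 PP2C.D phosphatases 1 was called lower and 2 higher in monosome RNA and 1 lower and 1 higher in polysome RNA. *AHA1* and *AHA2*, the main pumps, had changes of 0.25 and -0.08 in monosome RNA and 0.27 and 0.14 in polysome RNA, with limma adjusted p-values of 0.192 to 0.706. *PP2C-D5* was called lower in monosome RNA (-0.60, limma adjusted p = 0.00243) and had -0.60 in polysome RNA (limma adjusted p = 0.0502), while *PP2C-D1* and *PP2C-D2* were not called in any comparison tested.

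Upstream of the *SAUR* genes, receptors, auxin response factors and synthesis genes held falls after AA, beside 10.4% of all genes called lower in each fraction; the members of these lists named here were chosen after their values were seen. Of 6 auxin receptors 2 were called lower in polysome RNA, *TIR1* (-0.83, limma adjusted p = 0.00953) and *AFB1* (-1.58, limma adjusted p = 7.7e-04). Of 5 auxin response factors, which switch *SAUR* genes on, 3 were called lower there, *ARF6* (-1.004), *ARF8* (-1.05) and *ARF19* (-0.87). Of 8 tested auxin synthesis genes 3 were called lower, *TAA1*, *YUC3* and *YUC6* (-0.74, -1.81 and -2.06). GH3 enzymes, which conjugate and so inactivate auxin, went the other way, with 4 of 6 called higher in polysome RNA, where 8.48% of all genes were (*GH3.2*, *GH3.3*, *GH3.5* and *GH3.6*, 0.62, 1.83, 1.42 and 0.52). In monosome RNA 3 receptors, 2 response factors and 3 synthesis genes were called lower and 3 GH3 genes higher, where 11.6% of all genes were. Of 26 Aux/IAA repressors tested in polysome RNA 4 were called lower and 4 higher, and of 27 in monosome RNA 2 were lower and 3 higher. *PIF7* had 0.65 in monosome RNA (limma adjusted p = 0.00639) and 0.92 in polysome RNA (limma adjusted p = 0.0652), *PIF5* had 0.53 (limma adjusted p = 0.00409) and -0.07 (limma adjusted p = 0.881), and *PIF4*, *IAA19* and *IAA29* were not called in either fraction.

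In polysome RNA of *2OX* and of the sextuple mutant 0 genes of any of these lists were called by limma. At an unadjusted p under 0.05, where 2.81% of all genes were lower and 2.95% higher in *2OX*, 2 of 8 auxin synthesis genes were lower and 1 higher. Lower at that level in *2OX* were also 2 of 26 Aux/IAA genes, 1 of 6 GH3 genes, 1 of 7 PIF and BZR genes, 1 of 9 PP2C.D genes and 1 of 16 expansins. In the sextuple mutant, where 5.83% of all genes were lower and 4.19% higher, 3 of 9 PP2C.D phosphatases and 1 of 7 PIF and BZR genes were lower, and 1 of 6 GH3 genes, 1 of 15 expansins, 1 of 25 Aux/IAA genes and 1 of 5 response factors were higher. The PP2C.D gene in *2OX* was *PP2C-D1* (-0.70, limma adjusted p = 0.388). *AHA1* and *AHA2* had -0.06 and -0.05 there.

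**Figure D5:**
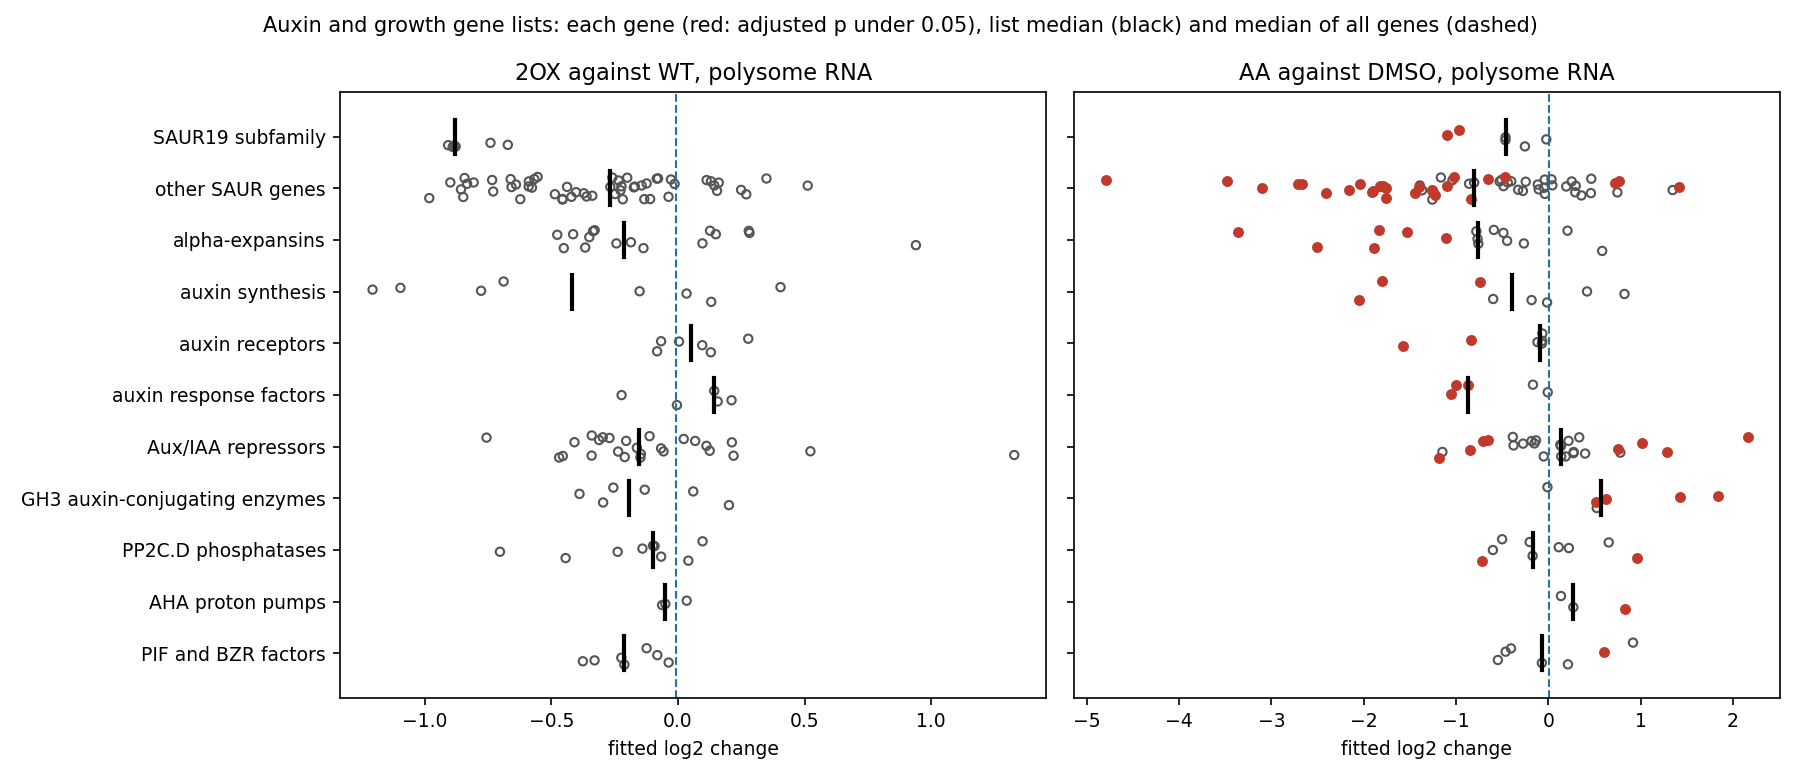
Fitted log2 change of each gene of the auxin and growth lists in polysome RNA, for *2OX* against WT (left) and AA against DMSO (right), on separate linear axes. Points are genes, filled red where the limma adjusted p was under 0.05, black bars list medians and the dashed line the median of all genes. The subfamily's median is -0.88 in *2OX*, with no gene of any list called, and -0.46 after AA, where 24 other *SAUR* genes are called lower and 4 GH3 genes higher.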

How the data were processed

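Polyadenylated RNA of monosome and polysome fractions from whole Arabidopsis seedlings was sequenced, and the authors deposited 6 tables with 1 normalized signal per gene and library, normalized within each table by a method not given in the sources used here. Bowtie 0.12.2 and the TAIR10 build are named in the submitters' processing notes. Fold changes and p-values of the authors' own comparisons stand beside these values and were not used, and the number of other per-sample columns was 0. Signals were almost never whole, reads per gene could not be recovered, and depth is unknown. A test on counts was therefore replaced by limma 3.58.1 (R 4.3.3), with lmFit and eBayes with a variance trend on log2(value + 1), two-sided, over genes with at least 10 in 3 libraries, and Benjamini-Hochberg adjustment over all genes tested at 0.05. TE changes were interactions of fraction and group in 1 fit, and differences between changes were contrasts in 1 fit over both tables. Tables were normalized separately and were compared only through such within-table changes, apart from WT replicates set on 1 scale as a description.

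Members and gene lists were chosen with earlier results of these data known. Named were the 6 members, the 3 called list genes with the largest change per comparison, and *AHA1*, *AHA2*, *PP2C-D1*, *PP2C-D2*, *PP2C-D5*, *PIF4*, *PIF5*, *PIF7*, *IAA19* and *IAA29*, together with the 5 genes most like the members. The receptor, response factor, synthesis and GH3 genes and the root and shoot markers named with values fall outside this rule and were chosen after their values were seen. Samples with equal numbers in compared groups did not deviate together (r of -0.092 to 0.076), so no block entered the fits of single fractions. Monosome and polysome libraries of the same replicate had r of 0.028 to 0.30. The reported TE fits left this pairing out, and it entered only as an alternative. Alternatives were another pseudocount, filter, scaling (quantile, TMM) or variance model, each replicate left out (for the untested monosome changes, chosen after seeing the data), and the replicate number as a block. In simulated data for *2OX* polysome RNA (19873 genes) the fit recovered 79% of genes changed by 2 on the log2 scale. Of those changed by 1 it recovered 40%. For AA it recovered 80% and 37% in monosome RNA (21095 genes) and 71% and 27% in polysome RNA (20614 genes). Of the calls, 4.8%, 0.847% and 2%, in that order, fell on unchanged genes. Values were drawn independently for each gene, so these rates do not give the chance to call a change of the members in the real data. Coordinates and sequences were read from RefSeq TAIR10.1 with Python 3.11.15 and Biopython 1.88.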

Additional observations from a re-analysis of the deposited data

Results flagged for a closer look

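The response of *SAUR19* and *SAUR20* in polysome RNA differed between AA and the sextuple mutant in a test of the difference itself. The AA change minus the sextuple change was -1.33 for *SAUR19* (limma adjusted p = 0.0288), with -0.97 after AA and 0.35 in the mutant, and every AA library was below every DMSO library. For *SAUR20* the difference was -1.32 (limma adjusted p = 0.0312), with -1.10 after AA and 0.22 in the mutant. Neither mutant change was itself called (limma adjusted p = 0.670 and 0.795). Without WT replicate 1 the differences were -0.93 (limma adjusted p = 0.0577) and -0.94 (limma adjusted p = 0.0705). Of 18 alternative fits, 7 lost the call of *SAUR19* and 6 that of *SAUR20*, with highest limma adjusted p-values of 0.0954 and 0.103. AA was given to WT seedlings in liquid medium, while the mutant grew on plates.

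*SAUR21* in monosome RNA lay lower in every *2OX* replicate than in WT replicates 2, 3 and 4 (-0.74) and higher in every sextuple replicate than in WT replicates 1, 2 and 4 (0.63, and 0.25 without WT replicate 1). WT replicate 1, which the *2OX* comparison did not use, lay at 337 on its scale, under the 387 to 469 of *2OX*. WT replicates 2 and 4 serve in both comparisons, the *2OX* contrast chose the family, and the difference between these changes was not tested.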

How the results depend on the processing

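No direction of a called member changed under any alternative. Of 606 values, most of them of members not called, 561 kept their direction and their side of the threshold. Another 7 gained a call and 14 uncalled values changed sign. The other 24 lost a call, all among the called results. In AA monosome RNA *SAUR19* lost it in 3 of 13 fits, *SAUR20* in 1 and *SAUR22* in 6. In AA polysome RNA *SAUR19* lost it in 1 of 13 and *SAUR20* in 0. For AA minus sextuple it was lost in 7 of 18 fits (*SAUR19*) and 6 of 18 (*SAUR20*). Without a variance trend 0 members were called in AA monosome RNA and 0 for the AA change minus the sextuple change. With 1 replicate left out, the number of members called ran from 0 to 1 in *2OX* polysome RNA, from 1 to 5 in AA monosome RNA, from 1 to 3 in AA polysome RNA and from 0 to 3 for AA minus sextuple. Over the same fits the sextuple polysome change ran from -0.043 to 0.63 (*SAUR19*), from -0.16 to 0.51 (*SAUR20*) and from -0.18 to 0.56 (*SAUR21*), and that of *SAUR24* in AA polysome RNA from -0.23 to 0.12. The TE change after AA ran from -0.36 to 0.19 (*SAUR19*), from -0.35 to 0.79 (*SAUR20*), from -0.16 to 0.41 (*SAUR21*) and from -0.0049 to 0.25 (*SAUR23*). AA minus *2OX* ran from -0.61 to 0.080 (*SAUR19*) and from -0.49 to 0.092 (*SAUR20*). In monosome RNA, as descriptions added after seeing the data, the median change of the 6 ran from -1.01 to -0.64 in *2OX* and from 0.20 (without WT replicate 1) to 0.72 in the sextuple mutant with 1 replicate left out. The cause was not tested.

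With the replicate block 4 members were called in AA monosome RNA (*SAUR21* added), 2 in AA polysome RNA, 0 in *2OX* and in sextuple polysome RNA and 0 for TE. Over all genes the block gave 9 calls in *2OX* polysome RNA, against 34 without it, 173 in the sextuple mutant, against 30, and 470 for TE, against 193. Leaving out *2OX* replicate 2 gave 110 calls in *2OX* polysome RNA, leaving out WT replicate 1 gave 134 in the sextuple mutant, leaving out DMSO replicate 1 gave 2093 in AA polysome RNA, against 3883, and AA monosome RNA had 2760 calls without a variance trend, against 4645. A count model was not run, since reads were not recovered, and the precision of low values is therefore unknown.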
